A study of Mus musculus with 48 samples.

Results

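The genes of the nuclear-encoded subunits of respiratory complex I were examined in liver and colon RNA of mice whose dams, or who themselves after weaning, ate diets sufficient or deficient in selenium and folate. A probe belonged to this set if its accession led to a gene symbol starting with Ndufa, Ndufb, Ndufc, Ndufs or Ndufv, and the assembly factors (Ndufaf) were left out. The rule took 49 of the 41174 probes on the array, which stand for 37 of 18434 named genes. Of 46 such symbols in the RefSeq gene table, which include near copies such as Ndufb4b, Ndufb4c, Ndufa11b and Ndufs6b, 9 had no matched probe, Ndufb1 and Ndufa4l2 among them. Whether RNA of near copies also bound the probes was not tested. Of the 7 subunit genes of the mitochondrial genome listed, 0 were measured.

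Complex I is the entry point of the mitochondrial respiratory chain. Its peripheral arm takes electrons from NADH and passes them along iron-sulphur clusters to ubiquinone, and its membrane arm couples this to proton pumping. A conserved catalytic core does the chemistry, and many accessory subunits around it are needed to assemble and stabilise the complex. Liver cells are rich in mitochondria and oxidise fatty acids, whose NADH this complex reoxidises.

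All mice were C57/BL6 offspring aged 12 weeks with no engineered allele named, and the study's methods describe them as males on a high-fat diet. In a group's name the 1st letter stands for the dam's diet and the 2nd for the offspring's own diet from weaning, H for sufficient and L for deficient in both selenium and folate. The study's methods describe H as supplemented and L as only marginally low, not as severe deficiency. The groups HH, HL, LH and LL differ in 2 nutrients at once and cannot separate them. Liver RNA came from 5 HH mice and 6 mice of each other group, since 2 HH arrays carried the same animal label and were averaged. Colon RNA was taken from 6 mice in every group. On 48 2-colour Agilent arrays mouse RNA carried the Cy3 dye and the RNA of 1 common reference the Cy5 dye, and each value is the log2 ratio of mouse over reference. The labels describe the reference as RNA of a whole pregnant mouse with foetus and the study's methods as pooled intestine and liver. A level is thus relative to a reference whose makeup is unsettled. In differences between groups the reference cancels, except through the normalization, which uses the signals of both dyes. In RNA of whole tissue, fewer cells of a type and less RNA per cell cannot be told apart, and p-values measure the spread between mice. The sample labels name no dam or litter, so whether mice of a group were littermates is unknown. The spread between dams, to which the dam's diet was given, could not be measured.

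Each of 12 slides carried 1 array of each group of 1 tissue, and the 2 tissues were scanned on different days, so tissue, slide and scan day cannot be told apart. On the liver arrays 55.1 to 66% of spots were well above background, and on the colon arrays 66.8 to 73.7%. All 49 probes of the set were above background on all 24 arrays of each tissue. The tissues matched their labels: 6 of 6 hepatocyte markers measured were called lower in colon (median log2 difference -5.70), and 8 of 8 colon epithelium markers were called higher (5.03). Smooth muscle markers were called higher in colon too, 6 of 6 (3.80). *Xist*, the RNA of the inactive X chromosome of females, stood over 2 log2 units above the median of its tissue in 2 liver samples (HL replicate 2 and LL replicate 6) and in 6 colon samples (HH replicates 1 and 5, HL replicate 5, LL replicates 1, 3 and 5). The log2 Cy3 signal of the Y-linked *Eif2s3y* was 6.29 in liver HL replicate 2. In colon it was 6.3 in HL replicate 5, and 7.37 and 6.38 in LL replicates 1 and 3. The other samples with *Xist* stood at 10.09 to 11.17, and the samples without it at 9.78 to 11.55. Whether RNA was mixed or samples were exchanged was not tested. The samples with *Xist* were kept, and counts without them are given for LH against HL in liver, for the colon comparisons and for the difference between the tissues.

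The DNA just before the genes' starts is shown for Ndufb4, which had the lowest p for the diet of the dam in the liver, and for Ndufa4, which differed most between the tissues. These are the 250 bases before the transcription start in RefSeq (GRCm38.p6), chr16:37654369-37654618 (minus strand) and chr6:11907451-11907700 (minus strand), written 5′ to 3′ on the gene's strand with CG dinucleotides in capitals.
Ndufb4: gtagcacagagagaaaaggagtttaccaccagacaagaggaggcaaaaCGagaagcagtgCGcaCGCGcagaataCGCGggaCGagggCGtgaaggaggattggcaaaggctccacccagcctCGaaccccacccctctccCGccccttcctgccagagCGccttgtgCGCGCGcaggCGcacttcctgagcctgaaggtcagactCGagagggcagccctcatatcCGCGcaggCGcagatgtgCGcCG
Ndufa4: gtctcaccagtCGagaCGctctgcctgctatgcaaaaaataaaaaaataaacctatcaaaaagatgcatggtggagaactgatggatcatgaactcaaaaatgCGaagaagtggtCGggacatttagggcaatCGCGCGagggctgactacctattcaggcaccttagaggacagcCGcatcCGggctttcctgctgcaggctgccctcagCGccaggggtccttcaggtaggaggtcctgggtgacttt
The Ndufb4 stretch held 21 CG dinucleotides and that of Ndufa4 10. Over the 33 members with a promoter in the table the number ran from 4 to 28 with a median of 15, against a median of 6 over all promoters. A CG is where DNA can be methylated, the modification that folate supplies with methyl groups, but methylation was not measured here.

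The members' promoters were also searched on both strands, over 300 bases from 250 before to 50 after the start, for 5 motifs. Those of YY1, NRF1, ETS factors and oestrogen-related receptors are known from mitochondrial genes, and TATAAA is the general TATA box. The letters AAGATGGC of the factor YY1 lay in 7 of 33 (21.2%) against 2.75% of 32851 promoters of the same length. All 7 lay 23 to 39 bases after the start, on the gene's own strand, and are shown because they lie at like positions, with the motif in capitals.
Ndufa3: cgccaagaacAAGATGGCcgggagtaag
Ndufa9: attgtgggagAAGATGGCggccgccgtc
Ndufb8: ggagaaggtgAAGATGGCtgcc
Ndufc1: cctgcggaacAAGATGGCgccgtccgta
Ndufs4: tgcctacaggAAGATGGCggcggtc
Ndufs6: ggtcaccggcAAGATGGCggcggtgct
Ndufs7: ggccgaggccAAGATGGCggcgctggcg
They lie at Ndufa3 chr7:3617385-3617412 (plus strand), Ndufa9 chr6:126849098-126849125 (minus strand), Ndufb8 chr19:44555393-44555414 (minus strand), Ndufc1 chr3:51408916-51408943 (minus strand), Ndufs4 chr13:114388045-114388069 (minus strand), Ndufs6 chr13:73328433-73328459 (minus strand) and Ndufs7 chr10:80249463-80249490 (plus strand). The motif contains ATG, the letters of a start codon, and where translation starts was not examined. GCATGCGC of NRF1 lay in 3 members (9.09% against 2.71%; Ndufa6, Ndufa8 and Ndufa11), CCGGAAG of ETS factors in 4 (12.1% against 8.86%), TATAAA in 4 (12.1% against 13.6%) and TCAAGGTCA of oestrogen-related receptors in 0 (0.423% of all promoters). A match describes letters in this window and not a bound site. Promoters of 4 members were not matched.

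The question put to the liver was whether the diet of the dam left a trace in adult offspring that ate the sufficient diet after weaning (LH against HH). No member passed the threshold of a 1.5-fold change with an adjusted p under 0.05, and 0% of all probes did. Before adjustment, 17 of 37 members had p under 0.05 and all 17 were lower in LH, where 6.14% of all probes were lower and 5.85% higher at that level, and 0 members were higher. Complex I probes are bright, and among the probes at least as bright as the dimmest member these shares were 10.9% lower and 8.99% higher. In all, 31 of 37 members lay below 0 against 52.8% of all probes, and the median difference was -0.21 against -0.008 over all probes and -0.016 over the bright ones. The lowest adjusted p among the members was 0.125. Because the set was chosen with earlier results known, these counts describe it and are not a test of it.

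Per mouse, the median over the 37 genes was -0.05, -0.01, 0.05, 0.05 and 0.14 in the 5 HH livers. In LH it had a lowest value of -0.36, a median of -0.21 and a highest value of -0.18, so every LH mouse lay below every HH mouse. HL mice ran from -0.37 through a median of -0.07 to 0.01, and LL mice from -0.20 through -0.11 to 0.05, and both overlapped HH and LH.

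**Figure D1:**
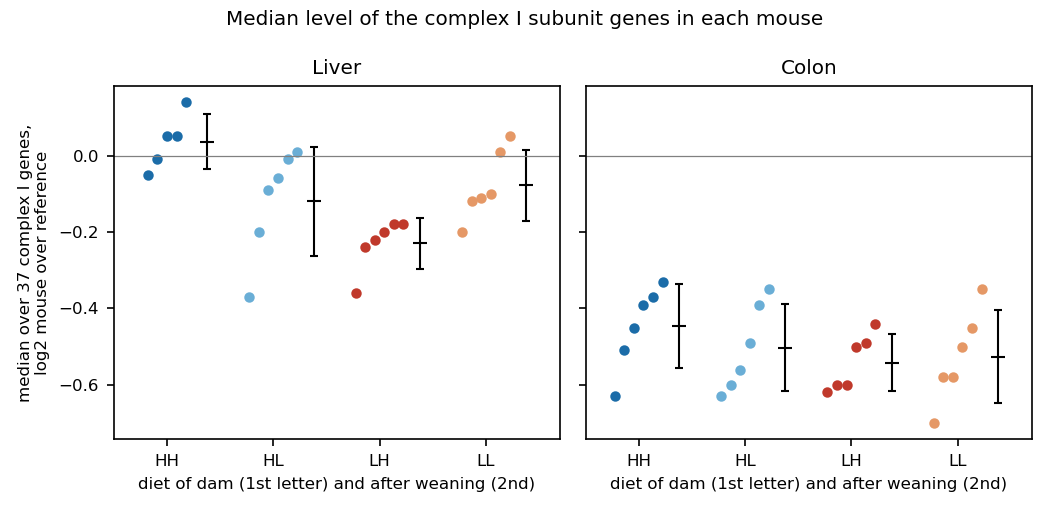
Median log2 ratio of mouse over reference over the 37 complex I genes, 1 point per mouse, by diet group in liver (left) and colon (right), with the group mean and SD beside the points. In liver the LH points (-0.36 to -0.18) lie below all HH points (-0.05 to 0.14), whereas in colon the groups overlap.

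In the NADH module, the tip of the peripheral arm, 3 of 8 members had p under 0.05 and the median difference was -0.13. Ndufs4, an accessory subunit that helps hold this module on the complex and whose loss causes Leigh-like disease in mice, stood at -0.37, -0.10, 0.13, 0.05 and 0.21 in the HH livers, and in LH at a lowest of -0.63, a median of -0.44 and a highest of -0.32. The LH mice were low, and only the lowest HH mouse reached into their range. The difference was -0.42 (SE 0.09, 95% interval -0.61 to -0.22, limma adjusted p = 0.182). Ndufa12, an accessory subunit next to it, read -0.18, -0.22, -0.32, -0.08 and -0.11 in HH and -0.85, -0.51 and -0.26 (lowest, median, highest) in LH. These ranges overlapped slightly, and the difference was -0.34 (SE 0.09, adjusted p = 0.224). Its other 2 probes differed by -0.10 and -0.06. Ndufs6, which carries a zinc site needed for assembly, stood at 0.02, 0.08, 0.23, 0.02 and 0.35 in HH and between -0.40 and -0.05 in LH, without overlap. Of the core subunits here, Ndufv1, which binds NADH and flavin, differed by -0.06, and the iron-sulphur subunits Ndufv2 and Ndufs1 by 0.13 and 0.15.

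In the quinone module, where electrons reach ubiquinone, 3 of 8 members had p under 0.05 and the median difference was -0.09. Ndufa7, an accessory subunit, stood at 1.00, 1.16, 0.95, 1.13 and 1.26 in HH. In LH the lowest value was 0.44, the median 0.60 and the highest 0.72, so the groups did not overlap. The difference was -0.52 (SE 0.13, 95% interval -0.78 to -0.26, adjusted p = 0.19), and the 2nd probe of the gene gave -0.21. Ndufa5, another accessory subunit, stood at -0.19, -0.01, -0.32, 0.12 and 0.19 in HH and ran from -0.86 through -0.40 to -0.24 in LH. One HH mouse lay within the LH range, and the difference was -0.43 (SE 0.12, adjusted p = 0.224). Among the core subunits that carry the clusters and line the quinone site, Ndufs7 differed by -0.24 (adjusted p = 0.407), whereas Ndufs3 and Ndufs8 differed by -0.08 and 0.06. Ndufs7 was the 1 core member of 7 with p under 0.05, and 4 of the 7 lay above 0 with a median of 0.06, against 16 of 30 accessory members lower and a median of -0.23. Whether core and accessory members differ was not tested.

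In the membrane arm, the part next to the peripheral arm had 4 of 9 members at p under 0.05 and a median of -0.22. Ndufc1, a small accessory subunit, stood at -0.10, -0.10, -0.31, -0.09 and 0.02 in HH. In LH it ran from -1.01 through -0.63 to -0.43, below every HH mouse. Its difference was -0.53 (SE 0.16, adjusted p = 0.239), and its other probe gave -0.32. Ndufa11 (-0.47), Ndufa1 (-0.41) and Ndufs5 (-0.18) were the other 3, with adjusted p of 0.314, 0.329 and 0.284. Ndufa10, with a difference of 0.05, was the 1 member of this part above 0.

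The distal part of the membrane arm had the most members with p under 0.05, 6 of 10, and all 10 lay below 0 with a median of -0.25. Ndufb4, an accessory subunit of this part, stood at 0.06, 0.22, 0.30, 0.37 and 0.48 in the HH livers. In LH the lowest value was -0.46, the median -0.36 and the highest -0.28. Every LH mouse was far below every HH mouse, and the 6 LH mice lay close together (SD 0.06). The difference was -0.64, or 1.56-fold lower (SE 0.11, 95% interval -0.88 to -0.41, adjusted p = 0.125). It passed both thresholds in 3 of 13 alternatives, and its adjusted p ran from 0.00377 (all 8 groups in 1 fit) to 0.222 over these alternatives. Ndufb5 stood at 0.20, -0.34, -0.04, 0.09 and -0.21 in HH and ran from -0.65 through -0.41 to -0.34 in LH. The groups met at their edges, and the difference was -0.40 (SE 0.10, adjusted p = 0.206). Ndufb2 (-0.38), Ndufb9 (-0.37), Ndufb6 (-0.22) and Ndufb8 (-0.21) made up the 6.

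Ndufa4, first purified with complex I and since assigned to cytochrome c oxidase, is in the set by its symbol. It stood at 0.09, 0.16, 0.33, 0.47 and 0.34 in HH and from -0.22 through -0.13 to 0.05 in LH, without overlap. The difference was -0.39 (SE 0.11, 95% interval -0.62 to -0.17, adjusted p = 0.224). Ndufab1, the acyl carrier protein of mitochondria, differed by -0.16 (adjusted p = 0.6). In all, 5 members did not overlap between LH and HH and were lower (Ndufb4, Ndufa7, Ndufa4, Ndufc1 and Ndufs6), where 0.843% of all probes did so.

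**Figure D2:**
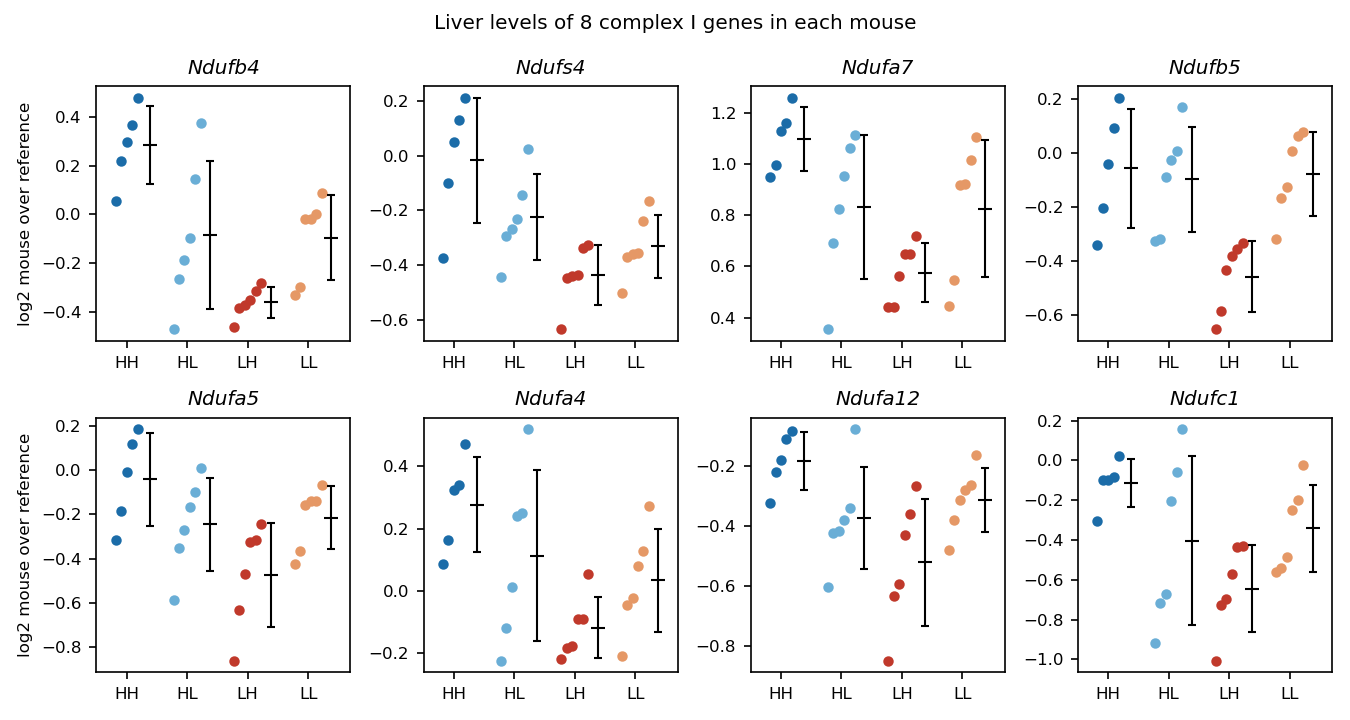
Log2 ratio of mouse over reference in the liver of each mouse for the 8 complex I genes with the lowest p for LH against HH, with group mean and SD beside the points. For Ndufb4 all 6 LH points (-0.46 to -0.28) lie below all HH points (0.06 to 0.48), and the HL and LL points spread between.

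The 8 members with the lowest p were also lower in LH on every slide. They were picked on the same arrays, so this describes them and adds no support, and the share of all probes is not given. Slides pair 1 array of each group, and within them the median over the members was lower in LH than in HH on 6 of 6 slides (-0.37 to -0.09), with 25 to 32 of the 37 genes lower. The 6 slides hold 5 HH mice, since 1 mouse is on 2 of them. Ndufb4 was lower on 6 of 6 slides (-0.86 to -0.37), as were Ndufs4, Ndufa7, Ndufb5, Ndufa5, Ndufa4, Ndufa12, Ndufc1 and Ndufs6. Of the 7 genes with the YY1 letters, 5 were among the 17 (Ndufb8, Ndufc1, Ndufs4, Ndufs6 and Ndufs7), as were 16 of all 33 members with a promoter in the table. With median centring of the ratios in place of loess, the count of 17 members fell to 8.

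**Figure D3:**
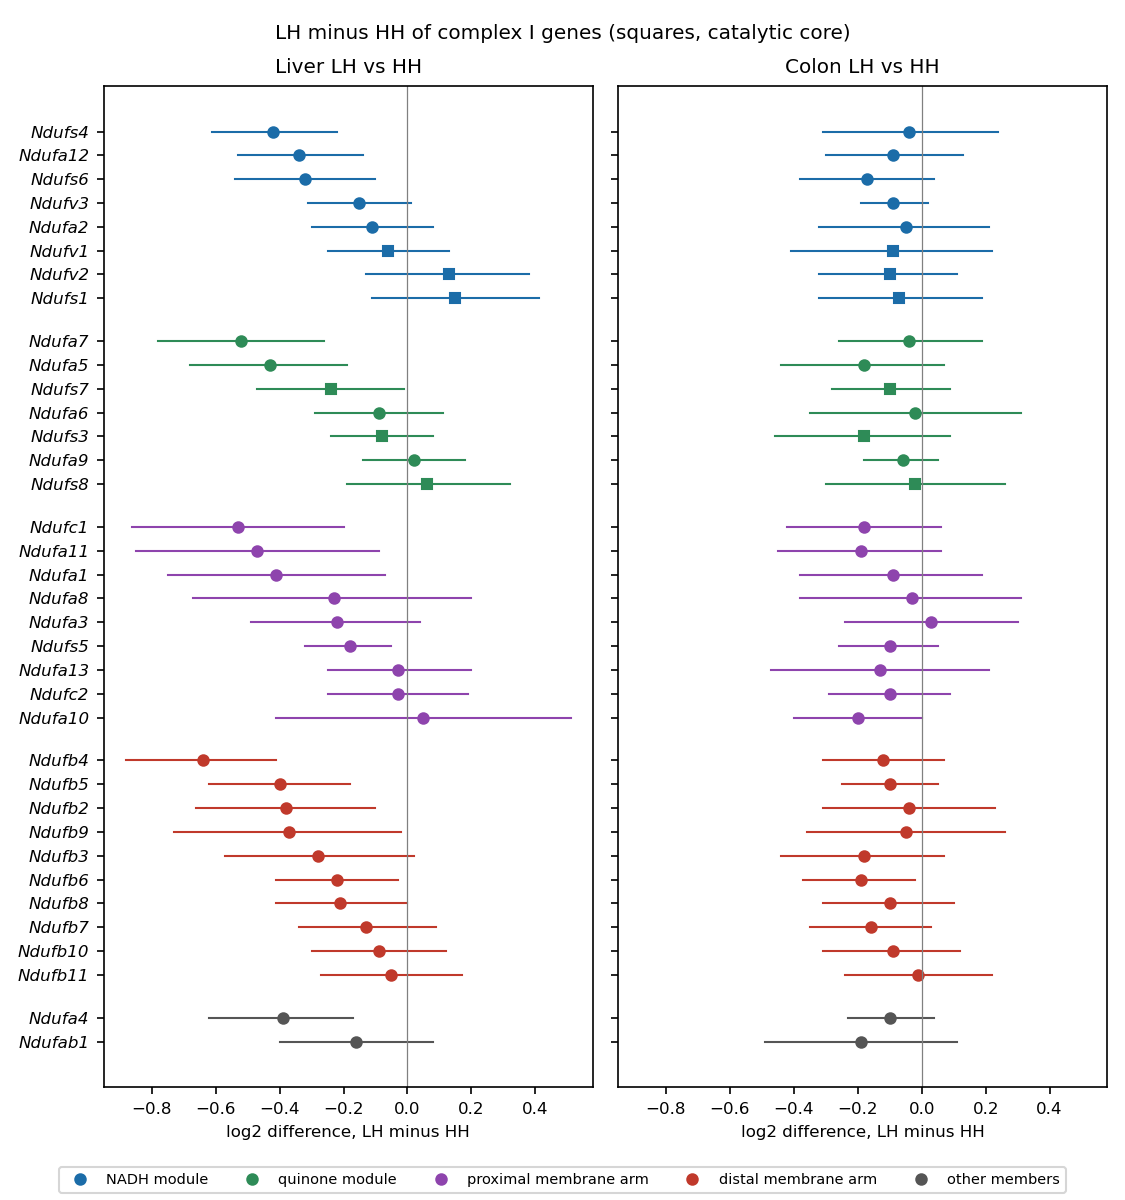
Log2 difference LH minus HH for 36 complex I genes with their 95% intervals, in liver (left) and colon (right), coloured by module with squares for the catalytic core. Liver values run from -0.64 (Ndufb4) to 0.15 (Ndufs1), and colon values from -0.20 (Ndufa10) to 0.03 (Ndufa3).

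Cell-type markers were read in the same comparison. All 6 hepatocyte markers measured lay above 0 (median 0.43), and 3 had p under 0.05 before adjustment: Fgb (0.52), Serpina1c (0.57) and Cyp2e1 (0.83). The median over these markers ran from 1.38 to 1.92 in the HH livers and from 1.80 to 2.27 in LH. Kupffer cell markers lay below 0 in 4 of 4 (Marco -1.08) and ran from 2.09 to 3.36 in HH and 2.00 to 2.82 in LH. Of the erythroid markers 2 of 3 were measured and both lay below 0 (Hba-a1 -0.49), and 5 of 6 immune markers did. Pancreas markers lay below 0 in 4 of 5 (median -0.31) and adipocyte markers above 0 in 3 of 3 (median 0.42), with 0 at p under 0.05 in limma in either list. The median over the adipocyte markers was 2.24 in LH replicate 4, against -1.57 for the LH group median, and without that mouse 15 members were lower, with a median of -0.21. Against HH, HL livers had 5 of 5 pancreas markers above 0 (median 0.46), 1 with p under 0.05, and HL replicate 1 stood at 1.06 where the HL group median was -2.45. In the colon, the highest median over the Kupffer cell markers in LL was -0.19, where the LL group median was -2.38. For the immune markers in LL these were 1.18 and 0.16. The lowest median over the adipocyte markers was -1.19 in colon LH (group median 2.67) and -0.99 in colon LL (group median 2.77). The part of these cell types in the complex I differences was not tested in either tissue.

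Genes that work with complex I were counted from lists. Of 16 measured assembly factors, which build the complex but do not stay in it, 4 had p under 0.05 and were lower, among them Ndufaf5 (-0.44, adjusted p = 0.195), Ndufaf2 (-0.29, adjusted p = 0.224) and Ndufaf4 (-0.49, adjusted p = 0.242). Of 13 regulators of mitochondrial genes 0 had p under 0.05, the lowest p being those of Ppara (0.40), Gabpb1 (0.17) and Pprc1 (-0.29). Of 11 genes of mitochondrial content, such as import and DNA maintenance genes, 9 lay above 0 (median 0.16) and 1 had p under 0.05, Tomm40, the import pore (0.27). In the other complexes and ATP synthase, 19 of 49 genes were lower and 2 higher at p under 0.05. By complex, 0 of 4 were lower in complex II, where Sdha differed by 0.75, 3 of 9 in complex III, 7 of 18 in complex IV and 8 of 17 in ATP synthase. None of these genes was called after adjustment.

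The deficient diet was met only after weaning in HL and throughout in LL. In HL against HH, 4 members had p under 0.05 and were lower, where 2.24% of all probes were, led by Ndufb4 (-0.37, SE 0.11, adjusted p = 0.952) and Ndufs5 (-0.17, SE 0.06). Ndufb4 ran from -0.47 through -0.14 to 0.37 in HL and overlapped both HH and LH. The count was 6 without HL replicate 1, the mouse with pancreas markers, and 2 to 9 over all mice left out in turn, the 9 without HL replicate 4. In LL against HH, 5 members were lower against 2.2% of all probes, led by Ndufs4 (-0.31, adjusted p = 1) and Ndufb4 (-0.38, adjusted p = 1). One member, Ndufs5, did not overlap between these groups, where 0.253% of all probes were lower without overlap. Under median centring both counts went to 0 and the medians over the members changed from -0.09 to 0.04 and from -0.07 to 0.10.

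The remaining pairs of groups differ in the dam's diet (LL and HL), in the offspring's own diet (LL and LH) or in both (LH and HL). Between LL and HL 1 member had p under 0.05, Ndufs7, which was higher in LL (0.23, adjusted p = 1), where 1.43% of all probes were, and Ndufa11 came next (0.28). Between LL and LH 7 members were higher in LL, where 3.19% of all probes were, and 0 were lower. Ndufb5 stood between -0.32 and 0.08 in LL and between -0.65 and -0.34 in LH, and differed by 0.38 (SE 0.10, adjusted p = 0.768). Ndufs7 stood between -0.07 and 0.34 in LL and between -0.39 and -0.08 in LH (0.33, adjusted p = 0.768). These 2 genes did not overlap between LL and LH, against 0.155% of all probes. The count of 7 ran from 3 (without LL replicate 2) to 11 (without LL replicate 4) with 1 mouse left out. Between LH and HL 5 members were lower in LH, where 1.05% of all probes were, led by Ndufb5 (-0.36, adjusted p = 1) and Ndufb4 (-0.28, adjusted p = 1), and Ndufb5 did not overlap (0.0389% of all probes). The count of 5 was 2 without the samples with *Xist*, 1 without HL replicate 4 and 10 without HL replicate 5.

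Taking the diets as 2 factors, the dam's L diet had 8 members lower at p under 0.05 where 2.68% of all probes were, and 0 higher. Ndufb4 (-0.33, SE 0.08, adjusted p = 0.999) and Ndufs4 (-0.26, adjusted p = 0.999) led, followed by members already described (Ndufa4, Ndufa5, Ndufa7, Ndufa12, Ndufb5 and Ndufc1). The probes of Ndufa7 ran from -0.27 to -0.01 here, those of Ndufc1 from -0.23 to -0.10 and those of Ndufa12 from -0.14 to 0.01. The offspring's own diet had 1 member higher, Ndufb5 (0.17), where 0.683% of all probes were, and Ndufs5 came next (-0.08, which became 0.04 under median centring). With median centring 3 were higher, and the median over the members was 0.12 in place of 0.01. The interaction asks whether the dam's diet matters differently by diet after weaning, and 13 members were above 0 at p under 0.05 with 0 below, where 5.4% of all probes and 9.68% of the bright ones were. Ndufb4 led (0.63, SE 0.16, adjusted p = 0.292), with Ndufa12 next (0.40, adjusted p = 0.303). The count was 6 with median centring. In Ndufb4 the order of the group means was HH (0.28), HL (-0.08), LL (-0.10) and LH (-0.36), and the neighbours HL and LL differed by -0.01 (95% interval -0.24 to 0.21).

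In the colon, LH against HH gave 1 member with p under 0.05, where 1.35% of all probes were lower. This was Ndufb6, a membrane-arm subunit, at -1.10 to -0.73 (median -0.88) in HH and -1.21 to -0.96 (median -1.10) in LH. The groups overlapped, and the difference was -0.19 (SE 0.08, adjusted p = 1). Ndufa10 was next (-0.20). With slide as a block the count was 6, all lower, while the share of all probes with p under 0.05 in either direction went from 3.24 to 8.08%, and without the samples with *Xist* it was 0. It ran from 0 to 7 when 1 mouse was left out, the 7 arising without HH replicate 3, which was low for Ndufc1 and Ndufs5. The size was small throughout: 36 of 37 members lay below 0 against 47.8% of all probes and 49.9% of the bright ones, with a median of -0.10. On 5 of the 6 slides the member median lay below 0, and on 1 it was 0.04. Ndufb4 differed by -0.12 (95% interval -0.31 to 0.07), at -0.81 to -0.41 in HH and -0.79 to -0.58 in LH, and Ndufa4 stood at -1.45 to -1.13 in HH and -1.53 to -1.29 in LH.

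The other colon comparisons gave few members. HL against HH had 0 in limma at p under 0.05, where 0.794% of all probes were lower and 0.668% higher (2 were lower with slide as a block), with Ndufb6 (-0.16) and Ndufb5 (-0.11) lowest in p. LL against HH had 2 lower, where 1.03% of all probes were: Ndufa9 (-0.16, adjusted p = 1), a quinone module subunit, and Ndufb5 (-0.18, adjusted p = 1), and the count was 6 with slide as a block. Ndufa9 ran from -0.88 to -0.64 in HH and from -1.06 to -0.79 in LL, with overlap. LL against HL had 0 at p under 0.05 where 0.481% of all probes were lower and 0.544% higher, and 1 was lower with slide as a block. LL against LH had 0 where 1.61% were lower and 1.19% higher. These had Ndufa9 at -0.10 and -0.09, Ndufb8 at -0.14 and Ndufb4 at 0.12. LH against HL had 1 lower, Ndufa10 (-0.21), where 1.15% of all probes were. The dam's diet had 2 lower, Ndufa9 (-0.08) and Ndufa10 (-0.15), where 0.882% of all probes were, and 4 with slide as a block. The offspring's diet had 0 where 1.18% of all probes were lower and 0.862% higher (1 was lower with slide as a block), with Ndufa9 (-0.07) and Ndufb5 (-0.09) lowest in p. The interaction had 1 above 0, Ndufb6 (0.27), where 0.767% of all probes were (2 with slide as a block), with Ndufc1 next (0.23). All adjusted p of these genes were 1. With slide as a block the share of all probes with p under 0.05 was larger in each of these comparisons too. Without the samples with *Xist* there were 1 lower for HL against HH, 3 for LL against HH, 0 for LL against HL, 2 for LL against LH, 0 for LH against HL, 4 for the dam's diet and 1 for the offspring's diet, and 0 above 0 for the interaction. The share of all probes in either direction then went from 1.72 to 4.42% for LL against HH and from 2.8 to 4.86% for LL against LH. It went from 2.11 to 4.6% for the dam's diet, from 2.04 to 2.78% for the offspring's diet and from 1.46 to 1.04% for HL against HH. With median centring LL against HH had 0 and LH against HL 3, where the latter's share of all probes went from 2.95 to 9%.

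The difference LH minus HH was itself compared between the tissues. In 5 members it was higher in colon than in liver at p under 0.05, where 3.97% of all probes were, and it was lower in 0. These were Ndufb4 (0.52, SE 0.15, adjusted p = 0.607), Ndufa7 (0.49, SE 0.17, adjusted p = 0.607), Ndufb5 (0.30, SE 0.13, adjusted p = 0.618), Ndufa4 and Ndufs4. No member passed the adjusted threshold, and the count was 8 with slide as a block, where the share of all probes in either direction went from 7.53 to 11.3%. It was 3 without the samples with *Xist*.

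Between the tissues themselves, 7 members fell in colon and 0 rose at a 1.5-fold change with an adjusted p under 0.05 (1 each way with median centring), where 14.6% of all probes were lower and 15.7% higher. Ndufa4 was at -0.22 to 0.52 in the 23 livers (mean 0.07 ± 0.22, SD) and at -1.61 to -1.13 in the 24 colons (mean -1.35 ± 0.10), with no overlap. It was 2.69-fold lower in colon (-1.43, SE 0.04, adjusted p = 9.22e-31). Ndufb6 (-0.71, adjusted p = 3.24e-19), Ndufb5 (-0.70, adjusted p = 6.92e-19) and Ndufb9 (-0.68, adjusted p = 4.55e-10) came next, followed by Ndufb2, Ndufa8 and Ndufb3. Of the 7, 5 belong to the distal membrane arm, 1 to the proximal part and 0 to the peripheral arm. Ndufb4 differed by -0.58 (adjusted p = 9.24e-14), below the fold threshold. At the adjusted p alone 28 members were lower and 1 higher (13 and 14 with median centring), where 36.1% and 33.4% of all probes were. Lower in colon without overlap over all mice were 4 of 37 (Ndufa4, Ndufb6, Ndufs5 and Ndufv3), about the share of all probes (11.1%). The 3 probes of Ndufv3 disagreed in direction and ran from -0.41 to 0.02.

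The upper end of this comparison held Ndufa12 (0.17, adjusted p = 0.00221), Ndufv2 (0.03), Ndufa11 (0.02) and Ndufab1 (0.01). The 3 probes of Ndufa12 disagreed in direction here and ran from -0.14 to 0.17. The 2 probes of Ndufab1 differed too, the 2nd giving -0.52. With the mean of all probes of a gene, 30 members were lower and 0 higher at the adjusted p. The median over members was -0.41 against -0.01 over all probes, but it was 0.01 with median centring, where the median of all probes was -0.215. The 2 members called there were Ndufa4, lower, and Ndufa11, higher (0.63). Ndufa4 (-1.14), Ndufb9 (-0.41), Ndufb6 (-0.34), Ndufb4 (-0.23) and Ndufb5 (-0.18) stayed below 0 under that centring. The direction of the set as a whole between the tissues therefore turned with the scaling.

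**Figure D4:**
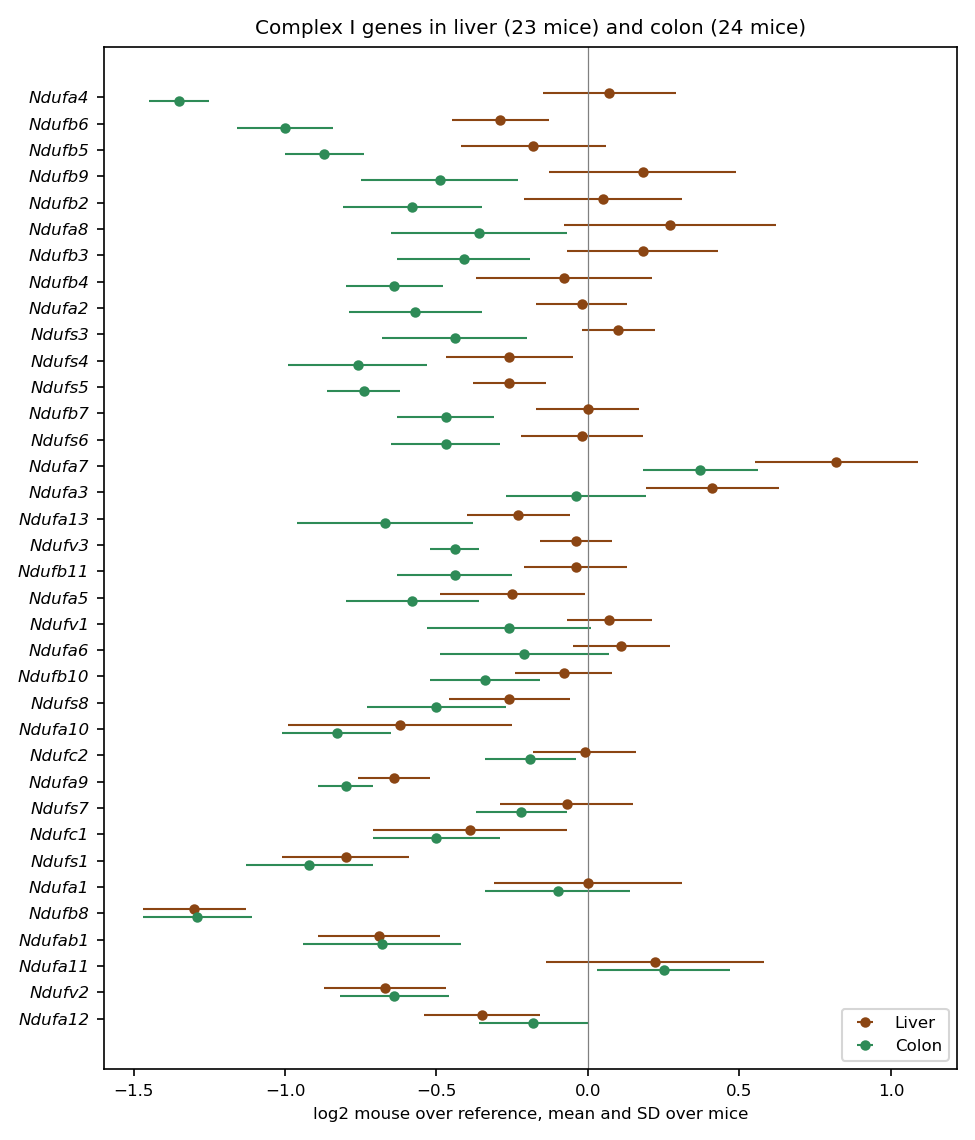
Mean log2 ratio of mouse over reference (points) with SD over mice (bars) for 36 complex I genes in 23 livers and 24 colons, ordered by the difference between tissues under loess. Ndufa4 is lowest in colon against liver (-1.43), and the median difference of -0.41 became 0.01 with median centring.

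Lastly, the members were followed from mouse to mouse after the group means were removed, as a description. In the 23 livers the correlation of a member with the median of the others had a median of 0.44 and was over 0.5 in 16 of 37. It was highest in Ndufa3 (0.88) and was 0.80 in Ndufb4, whereas the core subunit Ndufs1 (-0.44) and the accessory Ndufa10 (-0.39) ran the other way. In the 24 colons the median was 0.55 and 20 members were over 0.5, with Ndufc1 highest (0.86), Ndufb4 at 0.81 and Ndufs4 lowest (-0.61). The points of 1 tissue share slides and a scan day. Across the 37 members, the liver LH minus HH difference had a Pearson correlation of -0.13 with the mean log2 signal and of 0.11 with the log10 span of the gene.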

How the data were processed

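RNA of 23 livers and 24 colons was measured on 48 2-colour arrays. The authors deposited for each array the raw median intensity of every spot and its local background, read with Agilent Feature Extraction 10.10.1.1 per the file headers, and processed intensities that are background-subtracted and dye-normalized. A table of log2 ratios, likewise deposited by the authors, was normalized with loess in limma. With its sign turned to mouse over reference it gave a Pearson correlation of 0.9974 to 0.999 with the values used here. Flags of Feature Extraction (0 or 1, per the file headers) marked spots above background, saturated or outlying.

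In R 4.3.3 with limma 3.58.1, a local background brighter than its spot was set to the array's median background, intensities were corrected with normexp (offset 50) and normalized with loess within arrays, and spots of 1 probe were averaged as log2 mouse over reference. Without that repair the ratios spread less (SD under 0.7) on 3 liver and 2 colon arrays. Control spots (1639 of 45018) and outlier spots were left out. Accessions gave 27050 probes a name and left 14124 unnamed, and of several probes of a gene the brightest stood for it. Each tissue was fitted as 4 groups, and both as 8 groups for comparisons between tissues, with lmFit and eBayes on all probes. The labels tie no liver to a colon of the same animal, so tissues were compared as separate samples. Benjamini-Hochberg adjustment ran over all probes. Calls needed a fold over 1.5 and an adjusted p under 0.05. In data simulated for liver LH against HH over 41174 probes, 189 of 200 changed probes were called with 1 unchanged probe. Recovery of differences as small as those of the members was not tested. Precision is limited by the number of arrays.

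The 2 arrays of one HH liver mouse correlated in their deviations from the group mean (0.805, against at most 0.26 in other HH pairs). Replicates were numbered in slide order within each tissue, so mice of 1 tissue with the same number share a slide. Deviations of LH and HH mice on the same slide correlated at 0.18 to 0.61 in colon, over 0.1 on 6 of 6 slides, and at -0.13 to 0.28 in liver, over 0.1 on 4 of 6.

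Members and lists were chosen with earlier results of these data known. Named with values were Ndufb4, Ndufa4 and Ndufab1, the 8 members with the lowest p in liver LH against HH, the 2 with the lowest p in each other comparison, the 4 with the largest difference each way between tissues, the 3 with the lowest p for the difference between tissues, and members with a mouse far from its group. Other genes are named only to complete a count. The values of 1 member are not reported here, though it is in the counts and medians over the set. Alternatives were other background and normalization settings, the deposited table, a filter on dim probes, slide as a block, 1 or 2 arrays of the repeated mouse, all 8 groups in 1 fit, samples with *Xist* left out, array weights, the mean of all probes of a gene, and each mouse left out.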

Additional observations from a re-analysis of the deposited data

Results flagged for a closer look

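In 11 of 296 sets of 1 gene in 1 group (3.72%) and in 1 of 8 group medians, 1 mouse stood far from the others by Dixon's test, and chance alone gives about 1 in 20. The values that can be reported are given here. In the colon, HH replicate 3 was low for Ndufc1 (-0.85, the others -0.36 to -0.21) and Ndufs5 (-0.98, the others -0.69 to -0.53). HH replicate 6 was high for Ndufs8 (-0.14, the others -0.61 to -0.46). HL replicate 3 was low for Ndufa11 (-0.46, the others 0.20 to 0.52), and LH replicate 5 was high for Ndufs3 (-0.20, the others -0.68 to -0.52).

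In the liver, HH replicate 3, the mouse measured on 2 arrays, was low for Ndufb10 (-0.24, the others 0.01 to 0.11) and for Ndufb3 (-0.12, the others 0.35 to 0.50). LH replicate 4 was high for Ndufv1 (0.32, the others -0.07 to 0.04), and LH replicate 5 had the lowest median over the members (-0.36, the others -0.24 to -0.18). LL replicate 3 was high for Ndufa8 (0.92, the others 0.06 to 0.32), and LL replicate 4 was low for Ndufb2 (-0.20, the others 0.08 to 0.20).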

How the results depend on the processing

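The count of 17 lower members in liver LH against HH was 14 to 19 under 12 alternatives and 8 with median centring, and 13 to 17 with 1 mouse left out, while its median of -0.21 was -0.23 to -0.14 under the alternatives, the -0.14 with median centring, and -0.22 to -0.17 with 1 mouse left out. With median centring the median over all probes also went from -0.008 to -0.064, and the members below 0 went from 31 to 25 of 37. The count of 19 came with processed signals and with array weights. The share of all probes with p under 0.05 in either direction then went from 12 to 12.3 and 20.2%. Ndufa4, Ndufa5, Ndufa7, Ndufb2, Ndufb4, Ndufb5, Ndufc1 and Ndufs4 had p under 0.05 in all 25 settings. The adjusted p of Ndufb4 was 0.033 with the 2 arrays of one mouse as 2 mice, 0.0471 with array weights and 0.00377 with all 8 groups in 1 fit, where those of Ndufa7, Ndufb5 and Ndufa4 were 0.0325, 0.0287 and 0.03. The 8 members of the liver dam diet were 4 with median centring, 5 with the mean of all probes of a gene and 5 to 11 with 1 mouse left out (5 without HH replicate 5). The 1 member of colon LH against HH was 4 without the background repair, 7 with processed signals, 3 with median centring, 4 with array weights, 0 without the samples with *Xist*, and 0 to 7 with 1 mouse left out. The share of all probes with p under 0.05 in either direction went from 3.24 to 7.19% without the repair. It went to 5.97% with processed signals, 2.51% with median centring, 5.13% with array weights and 3.08% without the samples with *Xist*.

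Between the tissues, the 7 called members were 3 with processed signals and 2 with median centring, and 6 to 8 with 1 mouse left out. The median of -0.41 was -0.27 with processed signals, 0.01 with median centring and -0.41 to -0.39 with 1 mouse left out. Ndufab1 (0.01) was -0.01 with array weights, -0.26 with the mean of all probes and -0.02 to 0.02 with 1 mouse left out. Ndufa11 (0.02) was -0.06 with processed signals and -0.01 to 0.06 with 1 mouse left out. The 5 members whose LH minus HH difference had p under 0.05 between the tissues, all higher in colon, were 9 with processed signals (8 higher, 1 lower), 3 with median centring (2 higher, 1 lower), where the median of 0.08 became -0.04, 3 without the samples with *Xist*, 9 with array weights (7 higher, 2 lower) and 4 to 7 with 1 mouse left out. For this difference the share of all probes with p under 0.05 in either direction went from 7.53 to 10.8% with processed signals. It went to 8.78% with median centring, 7.33% without the samples with *Xist* and 14.8% with array weights. Ndufs5 for the liver offspring diet was 0.04 with median centring. The causes were not tested.

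With slide as a block, which is the replicate pairing, the counts were 16 for liver LH against HH, 10 for the dam diet, 6 for colon LH against HH, 7 between the tissues and 8 for the difference between them. The share of all probes with p under 0.05 in either direction went from 12 to 14.2% for liver LH against HH. It went from 4.14 to 5.2% for the liver dam diet. The fit of all 8 groups does not apply to comparisons between tissues, and the settings for the repeated liver mouse do not apply to the colon alone. Limits are the 5 or 6 mice per group, dams and litters that are not named, no dye swap, a reference of unsettled makeup, and 0 calls after adjustment for any diet comparison. All member probes were above background on every array, so dim signal does not limit them.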
